A study of Homo sapiens with 6 samples.

Results

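The loci described here are those of 10 lineage genes, 5 of the myeloid and 5 of the T lineage, in ATAC-seq peak lists of B-cell acute lymphoblastic leukemia lines. ATAC-seq maps open chromatin through the Tn5 transposase, which inserts sequencing adapters into accessible DNA. Peaks were taken where they overlapped 8 fixed windows of the hg19 genome, 450 kb in all, with CD3E, CD3D and CD3G in a single window, here called the CD3 cluster. Of 718792 peaks in 12 lists, 342 met this rule. Merged over all lists, they formed 42 of 130872 regions, where a region is the union of peaks that touch or overlap. Positions of peaks and regions are given on hg19.

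The lines were RS4;11 and SEM, which carry a KMT2A-AFF1 fusion, and a line labelled RCH, read here as RCH-ACV because the growth protocol names that line. NSD2, a histone methyltransferase, was knocked down with the shRNA sh2, and cells with a non-targeting shRNA (NT) served as controls. No other treatment is given. There were 6 samples, 1 for each line and shRNA, and each came with 2 peak lists, read as 2 libraries. Whether these came from separate cultures is not stated, and their spread may be purely technical. Each line is a single cultured leukemia, and the knockdown of NSD2 cannot be checked from peak positions.

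SPI1 encodes PU.1 and CEBPA encodes C/EBP alpha, transcription factors that together direct granulocyte and monocyte development, and PU.1 also acts in early B cells. CSF1R is the receptor for macrophage colony-stimulating factor, CD33 a sialic acid-binding surface receptor of myeloid cells, and MPO the peroxidase of neutrophil granules. GATA3 and TCF7 are transcription factors that commit progenitors to the T lineage, and CD3E, CD3D and CD3G are invariant chains of the T-cell receptor complex. Leukemias with KMT2A fusions are known for switching between lymphoid and myeloid phenotypes. Open chromatin at a locus does not mean that its gene is transcribed.

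RefSeq promoter entries (GRCh38.p14) were found for 6 of the 10 genes, namely CEBPA, CSF1R, CD33, GATA3, TCF7 and CD3D. The peaks are on hg19 and coordinates were not converted, so none of these sequences was placed under a peak, and no region was assigned to a promoter, exon or intron. The 250 bases before the start are shown for CD33, whose window had no peak, CSF1R, which had the strongest myeloid peak in RS4;11, CEBPA, which had the most peaks, and CD3D, the only CD3 gene with an entry. In the first 3, capitals mark GAGGAA, the core letters of PU.1 sites, or TTCCTC, the same letters on the other strand. In CD3D they mark TGTGGT, the core letters of RUNX sites. The CD33 entry lies at chr19:51224830-51225079 on the plus strand, the CSF1R entry (the downstream one of 2) at chr5:150086555-150086804 on the minus strand, the CEBPA entry at chr19:33302535-33302784 on the minus strand and the CD3D entry at chr11:118342706-118342955 on the minus strand.
CD33: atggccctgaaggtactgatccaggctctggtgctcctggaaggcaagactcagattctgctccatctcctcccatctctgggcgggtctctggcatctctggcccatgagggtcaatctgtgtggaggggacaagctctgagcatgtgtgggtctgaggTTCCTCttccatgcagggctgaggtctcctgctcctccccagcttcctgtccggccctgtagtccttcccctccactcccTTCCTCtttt
CSF1R: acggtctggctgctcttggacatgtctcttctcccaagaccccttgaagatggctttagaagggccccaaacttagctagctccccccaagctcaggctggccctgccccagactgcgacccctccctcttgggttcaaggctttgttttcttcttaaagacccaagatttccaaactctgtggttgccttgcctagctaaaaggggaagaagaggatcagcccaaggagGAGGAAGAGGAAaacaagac
CEBPA: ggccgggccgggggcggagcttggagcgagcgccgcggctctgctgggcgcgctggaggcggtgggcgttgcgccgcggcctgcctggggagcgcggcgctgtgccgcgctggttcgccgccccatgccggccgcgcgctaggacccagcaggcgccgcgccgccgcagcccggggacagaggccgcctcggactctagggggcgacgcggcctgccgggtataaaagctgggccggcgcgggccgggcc
CD3D: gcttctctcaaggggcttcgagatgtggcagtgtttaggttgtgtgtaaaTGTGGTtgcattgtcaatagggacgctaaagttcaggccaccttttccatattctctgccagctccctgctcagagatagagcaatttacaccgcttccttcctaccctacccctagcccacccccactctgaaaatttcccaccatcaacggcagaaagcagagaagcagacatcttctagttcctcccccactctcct

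GAGGAA on either strand was found at 2 places in the CD33 entry and at 2 places in the CSF1R entry. It occurred once in the CD3D entry, where it is not capitalized, was absent from the CEBPA entry, and was present in 23.6% of all 35116 entries. TGTGGT occurred once in the CD3D entry and also once in the CSF1R entry, where it is not capitalized. The CD33 and CEBPA entries lacked it, and it was present in 11.0% of all entries. The CEBPA entry was 81.2% G and C with 41 CpG dinucleotides, against 53.2% and 2 for CSF1R, 58.8% and 2 for CD33, and 50.4% and 4 for CD3D, where the medians of all entries were 58% and 11. The other CSF1R entry, at chr5:150113366-150113615, had no GAGGAA, 6 CpG and 64.4% G and C. A match of letters is a description and not a binding site.

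Peaks were found in all 12 lists in 6 of the 8 windows, in 11 lists in the MPO window and in no list in the CD33 window. How many windows of such lengths across the genome have a peak in every list was not computed. The CEBPA window held the most peaks, 4 to 11 per list in 70 kb. SPI1 had 4 or 5 in 60 kb, CSF1R 4 to 7 in 90 kb, TCF7 2 to 5 in 60 kb, the CD3 cluster 1 to 3 in 60 kb and MPO 0 to 2 in 30 kb. GATA3 had from 1 to 8 in 50 kb. The lists themselves held 41594 to 84794 peaks, and RCH after knockdown had the shortest. The number of reads behind each list is unknown.

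**Figure D1:**
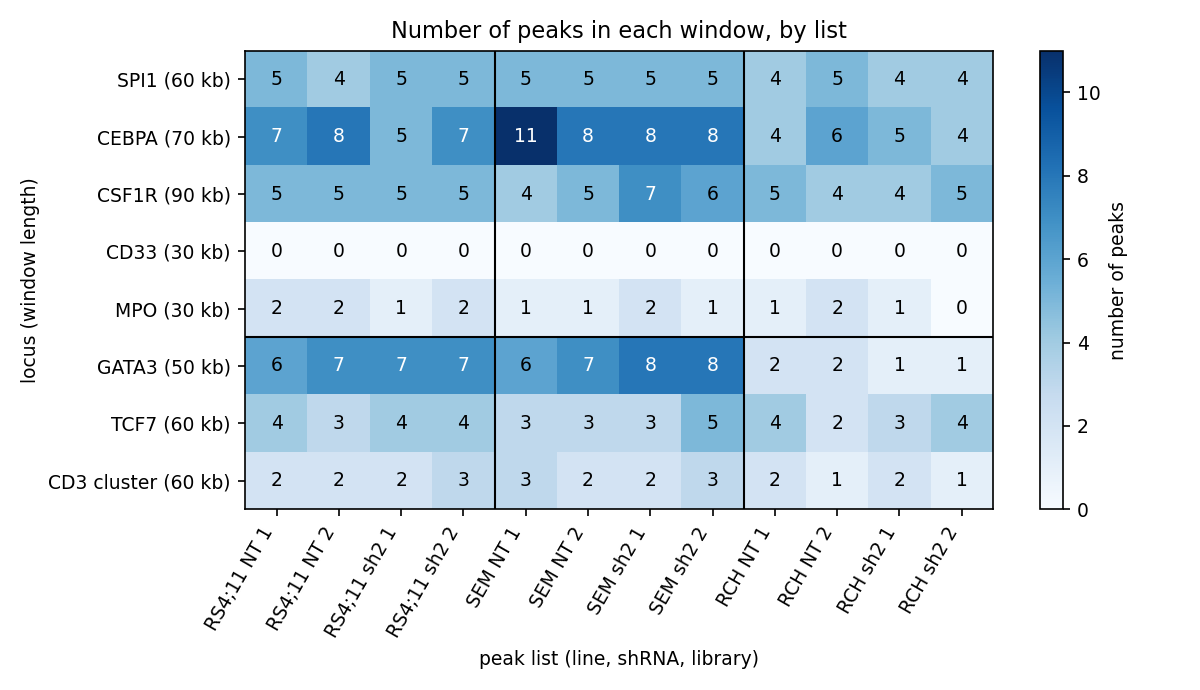
Number of peaks in each of the 8 windows (rows, with the window length in kb) for each of the 12 peak lists (columns, by line, shRNA and library), with darker blue for more peaks. The CD33 row is 0 throughout, and the GATA3 row drops from 6 to 8 peaks in RS4;11 and SEM to 1 or 2 in RCH.

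The strength of a peak is the authors' own value for it, interpreted as its fold enrichment over background within that library. No scaling joins the lists, and a fold that differs from one list to another therefore shows no change in level. For comparison within a list, each fold was also expressed as a percentile of all folds in that list. Of the 42 regions, 13 (31.0%) were open in every list, against 16.5% of all regions. With 50% of a region covered the count was 5 (11.9%, against 8.56%), and with folds above the median of all lists it was 6 of 27 (22.2%, against 16.5%). The 13 had mean percentiles from 52.1 to 86.4, with a median of 70.6. Regions open in 2 to 11 lists numbered 22, with mean percentiles from 1.60 to 80.3 and a median of 29.4, and regions open in a single list numbered 7, with values from 0.259 to 19.1. Of these 7 weak regions, 6 came from SEM, 1 from RS4;11 and 0 from RCH. Shares of all regions open in 2 to 11 lists or in 1 list, by line or in all, were not computed. No excess at these loci or in a line is therefore read from these counts.

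At SPI1, 3 regions were open in all lists, with a mean percentile of 69.8, 61.2 and 52.1. The first, chr11:47381063-47381677, had folds of 11.6 and 11.4 (NT) and 10.9 and 13.6 (sh2) in RS4;11, 8.06 and 6.61 (NT) and 8.19 and 7.21 (sh2) in SEM, and 11.2 and 9.62 (NT) and 5.69 and 4.75 (sh2) in RCH. It ranked at percentiles 76.9 to 88.6 in RS4;11 and 54.3 to 69.3 in SEM. In RCH it stood at 87.1 and 81.3 (NT) and at 54.3 and 37.8 (sh2). The second region, chr11:47399262-47400503, lay 18.5 kb further along and the third, chr11:47416116-47417277, 35.3 kb. Folds of the third were 8.10 to 10.1 in RS4;11, 4.70 to 8.39 in SEM and 3.92 to 6.97 in RCH. All other SPI1 regions were open in at most 3 lists with folds of at most 4.56.

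Near the edges of the SPI1 window, a region open in all lists (chr11:47421394-47422752, folds 6.85 to 9.32) lay 1393 bp outside. The neighbours of SPI1 in RefSeq are MYBPC3 and SLC39A13, and the windows were drawn around genes without excluding such neighbours. PDGFRB follows CSF1R, SKP1 follows TCF7 and UBE4A follows CD3G in the same way.

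At CEBPA, the strongest region was chr19:33793012-33794431, with folds of 9.55 and 11.2 (NT) and 11.7 and 9.92 (sh2) in RS4;11, 9.59 and 8.59 (NT) and 9.43 and 9.39 (sh2) in SEM, and 11.0 and 10.6 (NT) and 10.1 and 9.41 (sh2) in RCH. Its percentile was 85.7 to 87.8 in RCH, 71.0 to 81.1 in RS4;11 and 73.6 to 80.3 in SEM, and the RCH values did not overlap the others. A region open in all lists 41.6 kb before it, chr19:33751388-33752804, had percentiles of 24.9 to 62.0 in RCH, 59.3 to 73.3 in RS4;11 and 61.5 to 71.2 in SEM. Lists of different length underlie these percentiles, and how often a line stands apart in this way over all regions was not computed. No change between lines is read from these values.

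Between these regions the CEBPA window held 7 weaker ones, and the lines differed there. The region chr19:33759255-33759894 was open in all lists of RS4;11 (folds 4.87 to 6.93) and SEM (4.05 to 5.33) and in no RCH list. Open in all 4 SEM lists, in RCH NT library 2 and in no RS4;11 list was chr19:33771375-33771980, with SEM folds of 5.67, 5.94, 4.82 and 4.08. The reverse held at chr19:33777892-33778279, open in 3 RS4;11 lists and in RCH NT library 2 with folds of 4.09 to 6.21, and in no SEM list. The region chr19:33764328-33765364 was open in all lists of RS4;11 and SEM and, in RCH, in the sh2 lists alone, where folds were 4.27 and 3.98. No peak lay in the rest of the window beyond the strongest region.

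**Figure D2:**
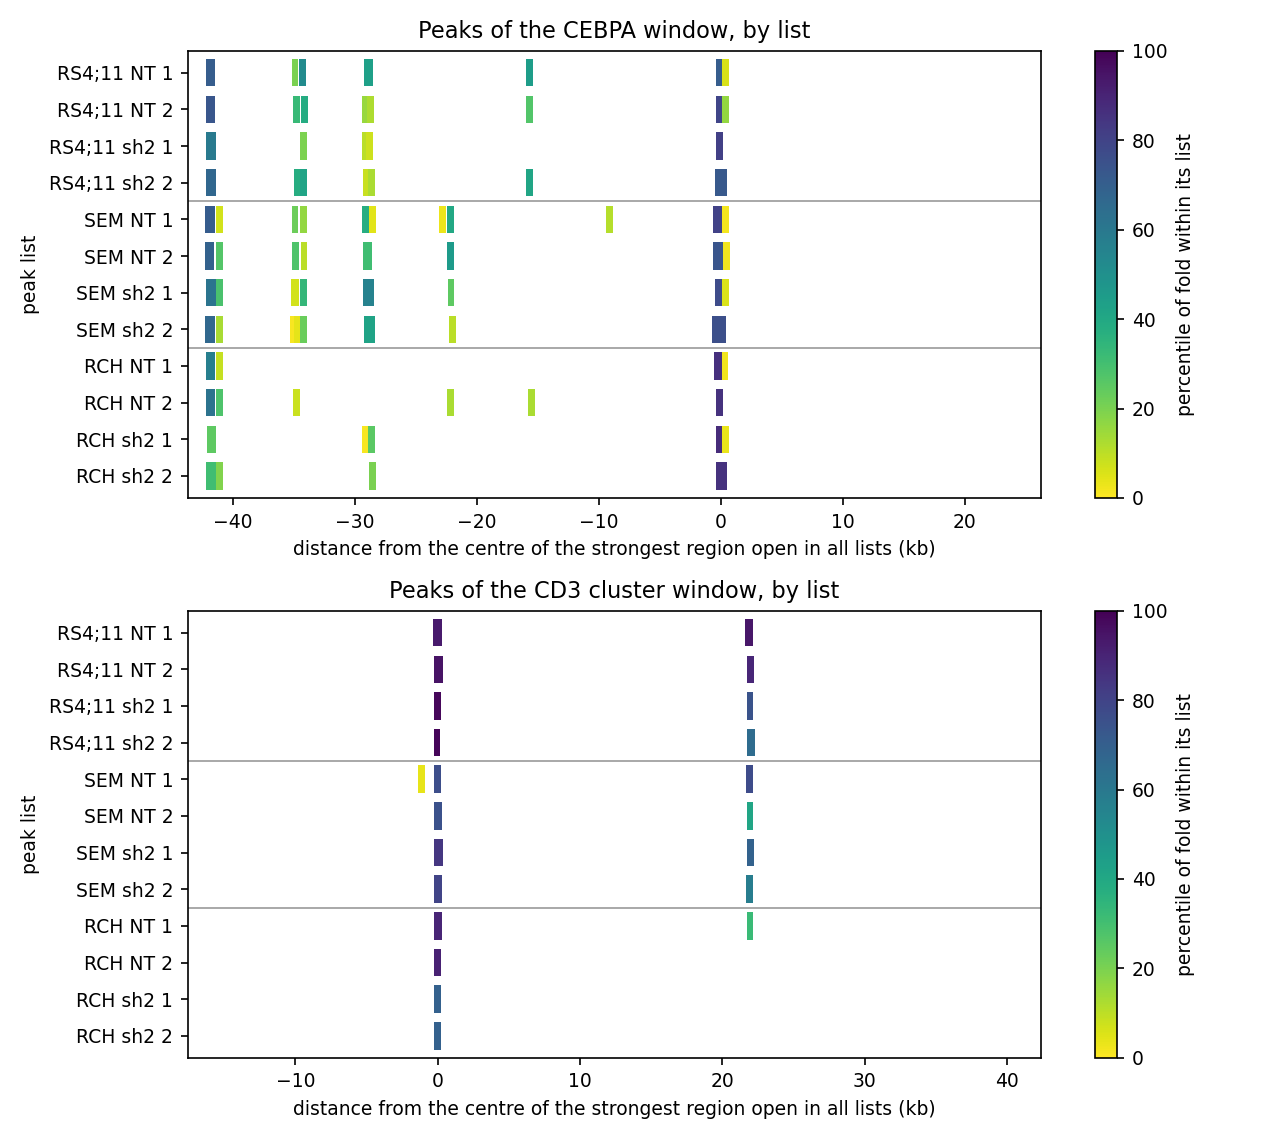
Positions of peaks in the CEBPA window (top) and the CD3 cluster window (bottom) for the 12 peak lists (rows), as the distance in kb from the centre of the strongest region open in all lists. Bars are peaks, widened where too narrow to see, and darker colour stands for a higher percentile of fold within the list. RCH has few bars between the CEBPA regions at -41.6 and 0 kb, and the CD3 bar at 21.9 kb is missing in 3 of 4 RCH lists. The region at the far edge of the CD3 window is not drawn.

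At CSF1R, 3 regions were open in all lists. The strongest, chr5:149461240-149462277, had folds of 14.5 and 14.6 (NT) and 14.5 and 15.6 (sh2) in RS4;11, 10.8 and 11.6 (NT) and 10.6 and 12.5 (sh2) in SEM, and 11.8 and 10.4 (NT) and 6.96 and 7.36 (sh2) in RCH. It was the strongest of all myeloid member peaks in RS4;11, at percentiles of 90.3 to 94.1. A pair of regions 15.0 and 16.1 kb before it, chr5:149446388-149447205 and chr5:149445425-149445937, were also open throughout, with folds of 5.72 to 12.5 and 4.77 to 8.93.

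A weaker CSF1R region, chr5:149509395-149509861, was open in 8 lists, among them all 4 of RS4;11 (folds 5.00 to 7.35). The others were seen mostly after knockdown or in SEM. The region chr5:149438379-149438655 was open in both SEM sh2 lists (folds 5.62 and 5.16), in RCH sh2 library 2 (3.92) and in no NT list. At chr5:149432788-149433279 only SEM had peaks, with folds of 3.78 in NT library 1 and 7.21 and 6.89 in the sh2 libraries. The CSF1R window held 4 and 5 peaks in the NT lists of SEM and 7 and 6 in its sh2 lists, without overlap, where 14.4% of 50 kb tiles with a SEM peak had more peaks in both sh2 lists. In RS4;11 all 4 lists had 5, and in RCH the values were 5 and 4 with NT and 4 and 5 with sh2.

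CD33 had no peak in any list over its 30 kb window. The nearest regions were open in 4 lists 34376 bp before the window and in 6 lists 11467 bp after it. An empty stretch of this length is common. Of all 30 kb tiles of the genome up to the last peak of each chromosome, unassembled sequence included, 37.4% had no peak in any list, and on chromosome 19 it was 34.9%. MPO had weaker peaks than the other windows with peaks. Its region chr17:56358968-56359460 was open in 11 lists with folds of 3.94 and 5.90 (NT) and 8.08 and 8.55 (sh2) in RS4;11, 4.30 and 5.37 (NT) and 3.96 and 4.95 (sh2) in SEM, 6.87 and 5.42 (NT) in RCH and 3.57 in sh2 library 1 of RCH. It ranked last of the 7 windows with peaks in each of the 11 lists.

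The GATA3 window showed the clearest difference between lines. The number of peaks was 6 and 7 (NT) and 7 and 7 (sh2) in RS4;11, 6 and 7 (NT) and 8 and 8 (sh2) in SEM, and 2 and 2 (NT) and 1 and 1 (sh2) in RCH. Every RCH list was below every list of the other lines. Of all 50 kb tiles with a peak, 2.81% showed this. In the other 7 windows no line stood wholly above or below the rest, and RS4;11 and SEM did so in no window. Among the tiles RS4;11 was wholly above in 3.30% and below in 0.479%, SEM above in 1.06% and below in 0.830%, and RCH above in 0.938%. The RCH NT lists held 56511 and 57088 peaks and those of SEM NT 53837 and 55072, while the RCH sh2 lists, at 44244 and 41594, were the shortest of all. With every list reduced to its 41594 peaks of highest fold, GATA3 had 3 to 5 peaks in RS4;11, 2 to 6 in SEM and 1 or 2 in RCH, so that SEM and RCH then met at 2.

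A single GATA3 region, chr10:8095273-8096050, was open in all lists. Its folds were 16.2 and 15.7 (NT) and 16.9 and 16.1 (sh2) in RS4;11, 10.6 and 10.3 (NT) and 10.1 and 10.6 (sh2) in SEM, and 8.58 and 10.2 (NT) and 7.30 and 6.99 (sh2) in RCH. Within their lists these ranked at percentiles 94.0 to 96.0 in RS4;11, 81.2 to 86.2 in SEM and 70.1 to 84.2 in RCH. RCH thus kept the main region, which was its strongest there, and lacked most of the others.

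Of the regions missing in RCH, 3 were open in each of the 8 lists of RS4;11 and SEM. They lay 15.6, 18.8 and 29.7 kb beyond the main one, and the others missing in RCH were open in fewer lists. The farthest, chr10:8125002-8125709, was strong, with folds of 13.7 and 10.6 (NT) and 11.96 and 12.5 (sh2) in RS4;11, and 7.89 and 8.58 (NT) and 10.0 and 11.8 (sh2) in SEM. Its percentiles ran from 67.8 to 88.9. The middle pair were weaker, with folds of 4.55 to 7.55 at chr10:8111024-8111562 and 4.23 to 6.49 at chr10:8114254-8114646. In SEM alone a further region, chr10:8103750-8104307, was open in all 4 lists, with folds of 3.89 to 5.74.

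**Figure D3:**
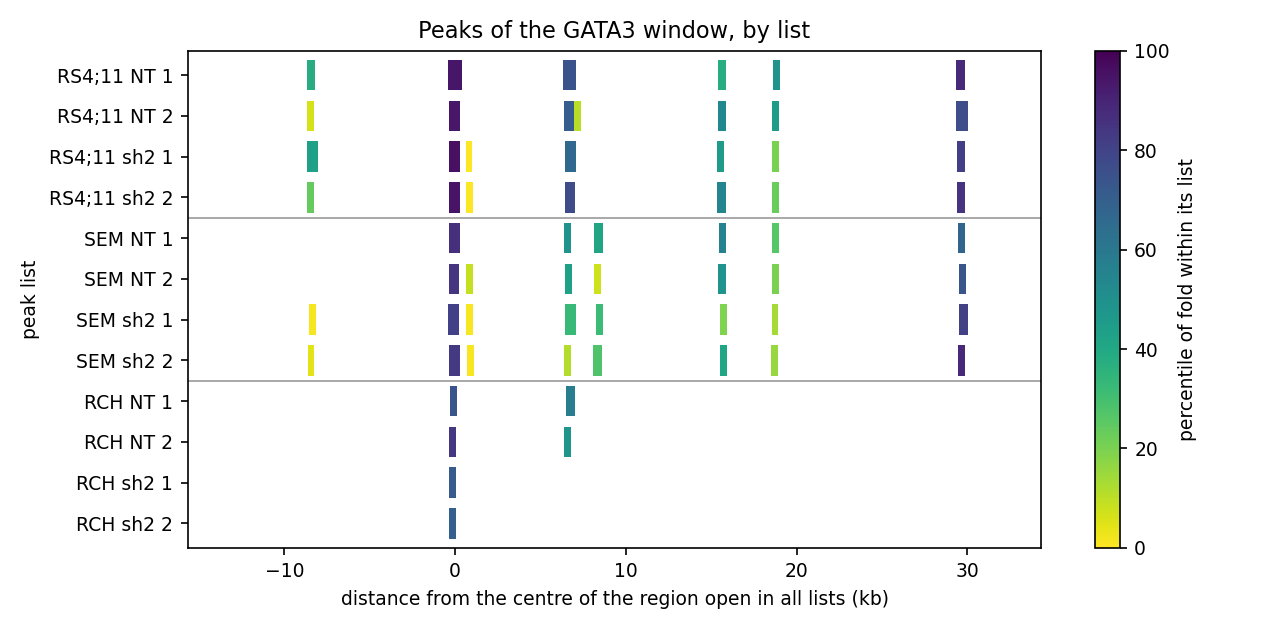
Positions of peaks in the GATA3 window for the 12 peak lists (rows), as the distance in kb from the centre of the region open in all lists. Bars are peaks, widened where too narrow to see, and darker colour stands for a higher percentile of fold within the list. The bars at 15.6, 18.8 and 29.7 kb are present in all 8 lists of RS4;11 and SEM and in no RCH list.

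Over all windows, 4 of 42 regions (9.52%) were open in every RS4;11 and SEM list and in no RCH list, against 1.44% of all regions. GATA3 held 3 of these 4 and CEBPA 1, and regions of 1 window are not independent. With all lists at equal length, 1 of them was left, the GATA3 region chr10:8125002-8125709. Of all regions of equal lists 1.08% had this pattern, beside 1 of 32 (3.12%) in the windows. Open in SEM alone was 1 region (2.38%, against 0.957%). It was 0 with equal lists (against 1.30%) and with folds above the median of all lists (against 0.940%). For RS4;11 alone the count was 0 against 2.03%, and for RCH alone 0 against 0.889%. Regions shared by RS4;11 and RCH only, or by SEM and RCH only, were also 0, against 0.426% and 0.355%. Lines differ in genotype, culture and library together, so the source of these differences cannot be told apart.

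At TCF7, 2 regions were open in all lists. The stronger, chr5:133449782-133450702, had folds of 13.6 to 14.5 in RS4;11, 9.54 to 10.4 in SEM and 6.65 to 9.76 in RCH, at percentiles of 88.3 to 91.4, 77.2 to 84.4 and 66.9 to 86.4. The other, 10.5 kb further along at chr5:133460126-133461300, had folds of 9.70 to 12.9, 7.29 to 7.90 and 6.18 to 8.55. A weaker region, chr5:133476199-133476667, was open in all 4 RS4;11 lists with folds of 6.57, 6.92, 5.59 and 6.38, and in 1 list each of SEM (4.37) and RCH (5.14).

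The strongest peak of the CD3 cluster ranked from 1 to 5 among the 7 member windows with peaks, depending on the list, and was at 5 in SEM NT library 1. In most lists this peak lay in the region chr11:118187232-118187918. In RS4;11 NT library 1 and SEM NT library 1 it lay in a region further along, described next. In RCH sh2 library 1 it lay in the region at the far edge of the window. The region chr11:118187232-118187918 had folds of 15.8 and 16.2 (NT) and 19.02 and 19.2 (sh2) in RS4;11. Its folds were 8.99 and 8.83 (NT) and 10.7 and 9.97 (sh2) in SEM, and 11.8 and 11.96 (NT) and 7.01 and 6.90 (sh2) in RCH. In the RS4;11 sh2 lists these stood at percentiles 98.3 and 98.6. A region 21.9 kb further along, chr11:118209165-118209865, was open in all lists of RS4;11 and SEM and, in RCH, in NT library 1 alone (fold 4.96). Its folds were 16.03 and 13.8 (NT) and 10.4 and 8.79 (sh2) in RS4;11, and 9.09 and 5.70 (NT) and 8.28 and 7.19 (sh2) in SEM.

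Since a common scale factor cancels within a list, these regions were also set against each other inside each library. The fold of the second over that of the first was 1.01 and 0.850 in RS4;11 NT and 0.549 and 0.458 in RS4;11 sh2, without overlap. In SEM it was 1.01 and 0.646 with NT and 0.776 and 0.721 with sh2, which overlapped. Among all neighbouring regions of RS4;11 open in all 4 lists and at most 60 kb apart, 19.8% had a lower ratio in both sh2 lists and 19.7% a higher one. Of the 19 such pairs in the windows, 4 were lower and 5 higher. In SEM, 6 of 19 were lower and 6 higher, against 22.3% and 21.9%, and in RCH 2 of 7 were lower and 3 higher, against 23.4% and 23.7%. The CD3 pair is thus 1 of many that differed this way, and pairs in a window share regions.

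A region at the far edge of the CD3 window, chr11:118229948-118230610, met the rule in 3 lists only, since the window ends inside it. These were sh2 library 2 of RS4;11, sh2 library 2 of SEM and sh2 library 1 of RCH. Peak numbers per window therefore count this region with sh2 and never with NT. The region was open in all 12 lists, with folds of 7.28 to 13.2. It is counted among the 13 regions open in every list, although its peaks in the remaining lists lay beyond the window. The neighbouring pairs above include it too. The next region beyond the window lay 41703 bp away.

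The comparison of NT with sh2 asked whether these loci opened or closed when NSD2 was depleted. Few regions did so by presence of a peak. A region was counted as NT-only where both NT lists and no sh2 list of a line had a peak, and as sh2-only in the reverse case, over regions merged from the 4 lists of that line. With 1 sample for each line and shRNA, no test was possible within a line.

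In RS4;11, 0 of 33 regions were NT-only, against 9.68% of all regions of the line, and 1 (3.03%) was sh2-only, against 0.879%. Open in all 4 lists were 26 of the 33 (78.8%), against 48.2%. The sh2-only region, chr10:8096312-8096636 at GATA3, was among the weakest of its lists, with folds of 2.83 and 2.72 at percentiles 0.346 and 0.284. Without sh2 library 2, 4 regions were NT-only. Leaving a library out loosens the rule, so such counts seldom fall, and no share of all regions is given for them.

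In SEM, 3 of 42 regions (7.14%) were sh2-only, against 7.65%, and 1 (2.38%) was NT-only, against 2.61%. Open in all 4 lists were 26 (61.9%), against 47.1%. These shares of changed regions are near those of the whole line. The sh2-only regions were the CSF1R region chr5:149438379-149438655, a GATA3 region (chr10:8087076-8087501, folds 3.17 and 3.59) and an SPI1 region (chr11:47398225-47398549, folds 3.43 and 2.98). The NT-only region, chr11:47416775-47417056, was a second peak of folds 3.02 and 3.88 inside the SPI1 region chr11:47416116-47417277, where the sh2 lists had a peak as well. Without SEM NT library 2, 5 regions were NT-only, and without either sh2 library of SEM 5 were sh2-only, under the same looser rule. With lists of equal length the balance turned, to 1 sh2-only region of 37 (2.70%, against 6.0%) and 2 NT-only (5.41%, against 5.06%).

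In RCH, 1 of 28 regions (3.57%) was NT-only, against 10.5%, and 1 was sh2-only, against 1.92%. Open in all 4 lists were 13 (46.4%), against 37.1%. The NT-only region was chr10:8102116-8102696 at GATA3, with folds of 6.68 and 5.94, percentiles 57.9 and 48.0. After knockdown, RCH thus had the main GATA3 region alone. In RS4;11 and SEM this place was open in all lists, with folds of 9.11 to 10.8 and 4.17 to 6.17. The sh2-only region was chr19:33764933-33765300 at CEBPA. Without NT library 1 of RCH, 5 regions were NT-only, again under the looser rule.

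The number of peaks over all windows was 31 and 31 in RS4;11 NT and 29 and 33 in RS4;11 sh2, a log2 ratio of sh2 over NT of 0, where the whole lists gave -0.35. In SEM it was 33 and 31 with NT and 35 and 36 with sh2, a log2 ratio of 0.15 beside 0.22 for the whole lists. In RCH it was 22 and 22 with NT and 20 and 19 with sh2, a log2 ratio of -0.17 beside -0.40. NT and sh2 did not overlap in SEM and RCH. In each line 1 of the sh2 totals includes a peak at the far edge of the CD3 window, which no NT total includes. The mean over lines was -0.01 ± 0.16 (SD, n = 3 lines), beside -0.18 ± 0.34 for whole lists. With the lists of a line cut to equal length the signs turned, to -0.30 in SEM and 0.17 in RCH, and RS4;11 gave 0.26. With only folds above the median of all lists, RCH gave -1.06 and the mean over lines was -0.30. The RCH sh2 lists had median folds of 5.42 and 5.32, below the 6.08 and 6.11 of RCH NT. Over all RCH regions this cutoff left 19.4% NT-only and 0.933% sh2-only. No ratio of whole lists is given under it, so no loss at these loci is read from -1.06.

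By window, both sh2 lists exceeded both NT lists in 2 of 8 windows of SEM, CSF1R and GATA3, where 14.4% of the 50 kb tiles with a SEM peak did so and 4.36% had fewer. The windows run from 30 to 90 kb and include CD33 with no peak, so tiles of 50 kb are not like units. In RCH both sh2 lists were lower in 1 window, GATA3, against 20.0% of tiles, and higher in 0, against 2.99%. In RS4;11 neither direction was seen in any window, against 1.92% higher and 20.3% lower. The GATA3 difference in SEM turned with lists of equal length, to 6 and 7 peaks with NT and 5 and 5 with sh2, while CSF1R kept its order at 4 and 4 against 5 and 6. The GATA3 values of RCH, 2 and 2 against 1 and 1, were the same in equal lists. At equal length CSF1R also had more peaks with sh2 in the other lines, 4 and 4 against 5 and 5 in RS4;11 and 3 and 3 against 4 and 5 in RCH, a comparison picked out after its values were seen and without a background share.

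Other genes of these lineages were counted in hand-set hg19 windows around each gene. Peaks were present in all 12 lists in 6 of 6 B-lineage windows (PAX5, EBF1, CD22, CD79A, CD79B and VPREB1), in 7 of 7 other myeloid windows and in 8 of 9 other T-lineage windows. The exception was CD7, a surface protein of T and natural killer cells, with a weak peak in 3 RS4;11 and 3 SEM lists (folds 3.09 to 4.68) and none in RCH. The median percentile of the strongest peak in a window was 69.8 for the B-lineage windows, 73.1 for the other myeloid and 74.0 for the other T-lineage ones. The share of windows of such lengths across the genome with a peak in every list was not computed. Neither a likeness nor a difference between lineages is therefore read from these counts.

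By the median over lists, the highest of these was CD28, a costimulatory receptor of T cells, with percentiles of 89.9 to 99.7. LCK, the Src-family kinase of the T-cell receptor, came next with 87.4 to 98.3. CD14, a monocyte co-receptor for lipopolysaccharide, followed with 81.8 to 96.1 and a median of 92.4. The CD4 window was close to it, with 80.3 to 96.3 and a median of 91.8. ITGAM, the integrin alpha M chain of myeloid cells, had percentiles of 90.5 to 94.4 in RS4;11, 55.1 to 81.4 in SEM and 8.05 to 55.3 in RCH, from which no difference between lines is read, since the lists differ in length. The cluster of AZU1, PRTN3 and ELANE, which encode neutrophil granule proteins as MPO does, had weak peaks, with percentiles of 2.95 to 55.4. Windows differ in length and hold neighbouring genes, so a strong peak cannot be assigned to the gene that names the window.

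**Figure D4:**
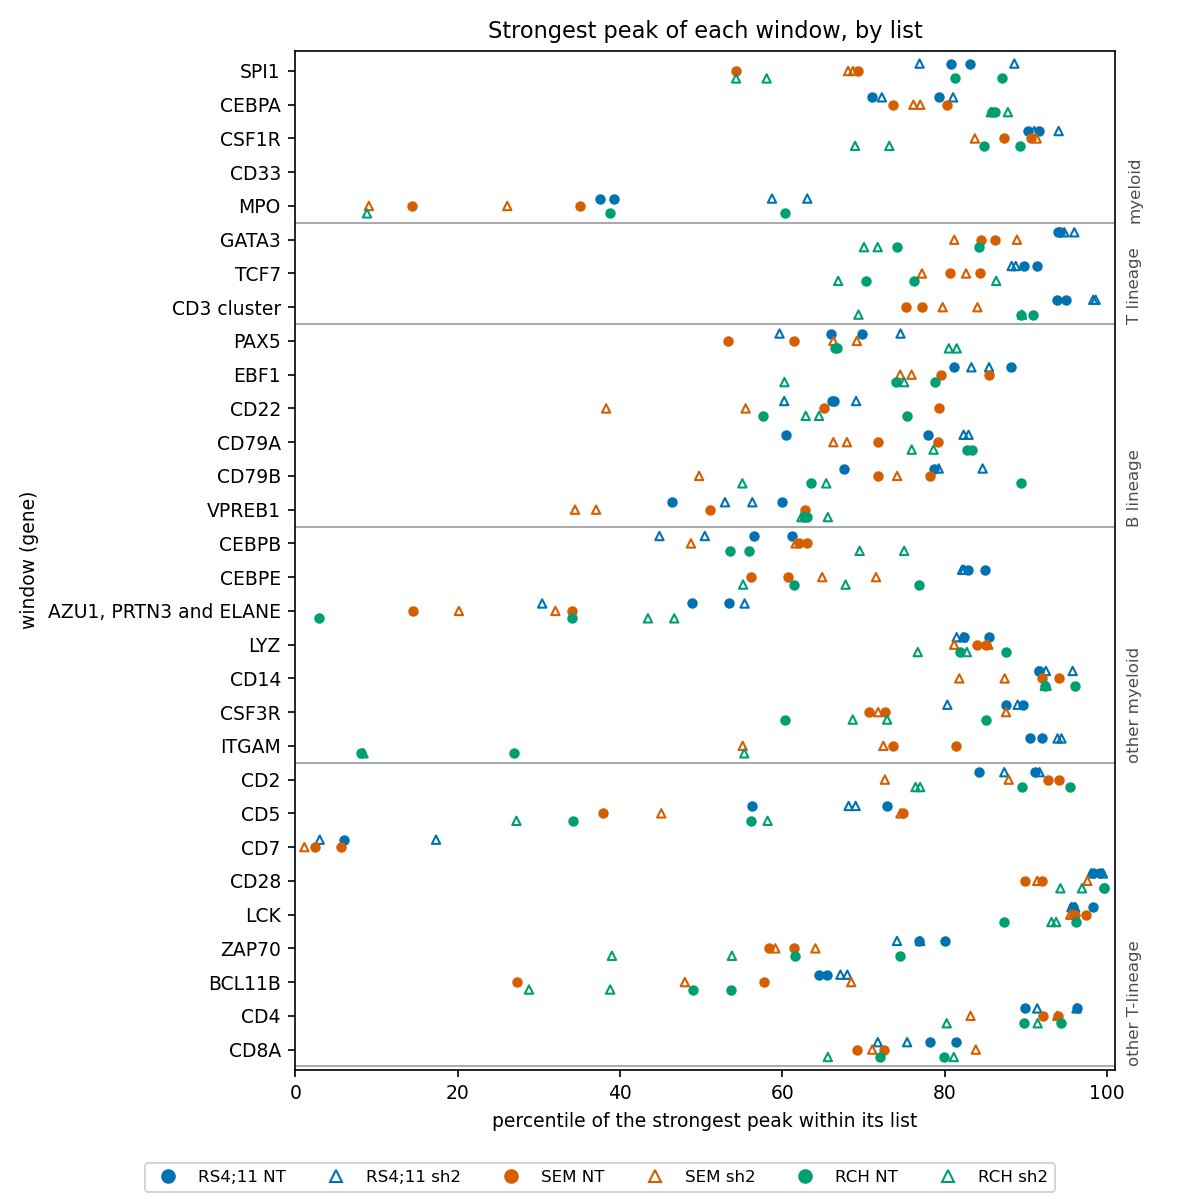
Percentile of the strongest peak of each window within its list (horizontal axis, 0 to 100) for the member windows (top 2 groups) and the B-lineage, other myeloid and other T-lineage windows. Colours are lines, filled circles NT and open triangles sh2, 2 points each, and no point stands for a list without a peak. CD33 has no point, MPO and the granule protein cluster lie low, and the CD3 cluster of RS4;11 reaches 98.6.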

How the data were processed

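ATAC-seq of 6 samples gave 12 peak lists without headers. Bowtie2, MACS2 and build hg19 are named, without versions, in the submitters' processing notes. Whether duplicates were removed or reads shifted for the cut of the transposase, and how deeply libraries were sequenced, is not given in those sources. Peak strength, in the deposited column 5, is taken as a fold (ratio of signal to background in a library), which is inferred from its range. Since depth is unknown, no interval or floor is given.

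The 140 peaks outside chromosomes 1 to 22 and X were left out. Libraries are numbered by list name. Peaks that touch or overlap were merged, over all lists for patterns across lines and over the 4 lists of a line for NT-only and sh2-only, and 1 bp of overlap made a region open in a list. Percentiles are ranks of fold within a list. Background shares come from all regions, all 50 kb or 30 kb tiles, or all neighbouring regions. The genes and lists were chosen with earlier results of these data known. The ratio of neighbouring folds, the tiles and the promoter letters were chosen after the data were seen.

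No test was run, since each line has 1 sample per shRNA and an exact sign-flip test over 3 lines cannot go below p = 0.25. Lines paired NT with sh2, by the sample titles. The regions to name were those open in all lists, those particular to 1 or 2 lines, and those NT-only or sh2-only, at most 3 per class and window by mean percentile, and a few others were named after their values were seen. Windows of the other genes were set by hand at 10 kb steps from general knowledge of hg19, and only their chromosomes were checked, against RefSeq. A further B-lineage window is not reported here. Merging was tested on simulated lists and recovered what was planted. Alternatives were equal list length, a stricter fold, 50% coverage of a region, windows widened by 10 kb, each library left out, and no pairing. Python 3.11.15, numpy 2.4.6, pandas 2.3.3 and matplotlib 3.10.9 were used.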

Additional observations from a re-analysis of the deposited data

Results flagged for a closer look

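The GATA3 window moved in opposite directions in a pair of lines, and this difference between lines was not tested. In SEM the number of peaks was 6 and 7 with NT and 8 and 8 with sh2, a log2 ratio of sh2 over NT of 0.30. In RCH it was 2 and 2 with NT and 1 and 1 with sh2, a log2 ratio of -1. With lists of equal length SEM went from 6 and 7 to 5 and 5, so that both lines then had fewer peaks with sh2. No group had the 4 samples needed to look for a sample far from the others.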

How the results depend on the processing

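Counts over the windows are small, and their size changed with list length and fold, and with a library left out. With lists of equal length, SEM had 2 NT-only regions of 37 (5.41%, against 5.06% of all regions) and 1 sh2-only region (2.70%, against 6.0%). Of 32 regions merged over all lists, 0 were open in SEM alone (against 1.30%) and 1 in RS4;11 and SEM alone (3.12%, against 1.08%). The log2 ratio of peak number was 0.26 for RS4;11, -0.30 for SEM and 0.17 for RCH. With folds over the median of all lists (6.37) required, RS4;11 had 1 NT-only region of 25 (against 8.98% of all regions). SEM had 0 NT-only regions of 19 (against 2.56%) and RCH 5 of 15 (33.3%, against 19.4%). Of sh2-only regions SEM had 1 (5.26%, against 9.85%) and RCH 0 (against 0.933%). RS4;11 then had 16 regions open in all 4 lists (64.0%, against 55.4%), SEM 11 (57.9%, against 46.5%) and RCH 6 (40.0%, against 37.6%). Of 27 regions merged over all lists, 6 were open in all 12 (22.2%, against 16.5%). In SEM alone 0 were open (against 0.940%), and in RS4;11 and SEM alone 1 (3.70%, against 1.95%). The log2 ratio was then -1.06 in RCH and -0.30 as a mean of 3 lines, and no ratio of whole lists is given under this cutoff. With 50% of a region covered, RS4;11 had 1 NT-only region (3.03%, against 11.2%) and 1 region of its own (2.38%, against 2.32%). Open in RS4;11 and SEM alone were 2 regions (4.76%, against 1.42%), and in all lists 5 (11.9%, against 8.56%). With wider windows RCH had 2 NT-only regions (6.06%, against 10.5%), and the log2 ratio was 0.22 in SEM and -0.23 in RCH.

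With 1 library left out, RS4;11 had 0 to 4 NT-only regions, SEM 1 to 5 and RCH 2 to 5, and sh2-only regions numbered 1 to 2, 4 to 5 and 1 to 2 in that order. Regions open in SEM alone numbered 1 to 2, with 2 when SEM NT library 2 or RCH NT library 2 was left out. The RS4;11 count of 4 came without sh2 library 2, the SEM count of 5 NT-only regions without NT library 2, and the RCH count of 5 without NT library 1. Leaving a library out loosens the NT-only and sh2-only rules, so those counts seldom fall, and no share of all regions is given for them. Counts of regions open in all lists of a line stayed within 1.5 times under each library left out. Without the pairing by line (no replicate block), the mean log2 ratio of peak number was 0.02, against -0.01 as paired.

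Depth is unknown, so the absence of a peak does not show closed chromatin.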
